A study of Homo sapiens with 8 samples.

Results

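The serine protease inhibitor neuroserpin, encoded by SERPINI1, was followed together with its neighbour PDCD10 and with 5 genes of plasminogen activation, SERPINE2, SERPINB2, PLAT, PLAU and PLAUR. Members were taken as every probe set whose platform annotation names 1 of these 7 genes, which gave 10 probe sets for 6 genes out of 54675 probe sets, while SERPINB2 had none and was not analysed here. SERPINI1 itself was selected on its difference between dexrazoxane and vehicle in these arrays, the others by their role or, for PDCD10, by position, so the dexrazoxane values of SERPINI1 are given as a description without a test. The cells were HTETOP, a line derived from human HT1080 fibrosarcoma cells whose topoisomerase II alpha (TOP2A) can be switched off with tetracyclines. They had received 100 µM dexrazoxane (3 arrays) or its vehicle (3 arrays), or 1 µg/ml doxycycline (1 array) or its vehicle (1 array), each for 24 h. Dexrazoxane blocks the catalytic cycle of type II topoisomerases, and doxycycline turns off the regulated TOP2A. All groups, vehicles included, therefore carry the same engineered TOP2A background of a single line. Each array carried pooled RNA of 3 passages. Separate cultures for the numbered arrays are not stated, and a p-value here covers array-to-array spread alone, part of which may be technical.

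Plasminogen activators cleave the inactive precursor plasminogen into plasmin, a broad protease that dissolves fibrin and cleaves pericellular matrix. PLAT encodes the tissue-type activator (tPA) and PLAU the urokinase-type activator (uPA), which binds the receptor encoded by PLAUR (uPAR) at the cell surface. Serpins stop the activators by forming covalent complexes with them: neuroserpin acts mainly on tPA and is best known from neurons, SERPINE2 encodes protease nexin-1, an inhibitor of thrombin, uPA and plasmin, and SERPINB2 encodes plasminogen activator inhibitor 2. HT1080 cells are widely used to study uPA and its receptor in invasion. PDCD10 encodes CCM3, a scaffold of the cerebral cavernous malformation and STRIPAK complexes, and is included for its position beside SERPINI1, not for a role in proteolysis.

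Levels are the deposited log2 values per probe set, on which a difference of 1 is a doubling. TOP2A followed the labels, at a log2 level of 6.02 on the doxycycline array against 11.98 on its vehicle array, and at 11.20, 10.92 and 10.52 on the dexrazoxane arrays against 12.41, 12.55 and 12.40 on the vehicle arrays. Array medians were 4.81 and 4.82 in the doxycycline pair and 5.49 to 5.57 on the other 6 arrays, and no level of one set is compared with a level of the other. Of 12 mesenchymal markers 11 were above the filter on low values, a mean log2 level of 4.83, the 40th percentile of probe sets. COL3A1 was below it, and VIM was highest at 13.81. The filter is no detection call, so passing it does not show that a marker is present. Marker lists of other lineages were mixed. Below the filter were CDH5, KDR, CLDN5 and ESAM of 7 endothelial markers, PTPRC and CD14 of 5 leukocyte markers, EPCAM, CDH1, KRT19 and ESRP1 of 7 epithelial markers and only STMN2 and NEFL of 11 neuron markers. Above it were, among others, PECAM1 (6.59), CD3E (6.93), KRT18 (11.29) and TUBB3 (12.41). The summed linear level of the neuron markers, on a log2 scale, was 12.45 to 12.69 on dexrazoxane and 12.38 to 12.57 on vehicle arrays, with 9 of 11 above the filter and TUBB3 highest, and that of the epithelial markers was 11.89 to 12.15 and 11.59 to 11.82, with 3 of 7 above it. Endothelial markers (3 of 7 above the filter) summed to 8.19 to 8.51 with dexrazoxane and 8.26 to 8.45 with vehicle, leukocyte markers (3 of 5) to 7.68 to 8.08 and 7.81 to 8.13, and mesenchymal markers to 14.50 to 14.71 and 14.53 to 14.66. Treatments were tested with limma, without a block and with the replicate number as a block, which compares arrays of the same number, and p-values were adjusted over all 14731 genes tested. With the block MAP2 of the neuron list (0.41, limma adjusted p = 0.0498) and KRT8 of the epithelial list (0.51, 0.0334) were higher with dexrazoxane. MAP2 lost this call in 4 of 9 alternatives with the block (no filter, single probe sets, and without pair 1 or pair 3, adjusted p = 0.0715 to 0.194) and KRT8 in 2 of 9 (single probe sets and without pair 1, 0.0698 and 0.0509), and without the block the MAP2 difference was 0.11 without dexrazoxane replicate 1, 0.65 without vehicle replicate 1 and 0.67 without dexrazoxane replicate 2, and that of KRT8 was 0.32 without vehicle replicate 3. Over the 9 alternatives with the block the differences were 0.34 to 0.54 for MAP2 and 0.39 to 0.64 for KRT8. For both, their part in the results that follow was not tested. In bulk RNA, fewer cells with a transcript and less of it per cell cannot be told apart.

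SERPINI1 was represented by 1 probe set (205352_at). Its log2 levels were 6.97, 6.93 and 7.15 with dexrazoxane against 5.82, 6.03 and 5.89 with vehicle. The groups were separated by 0.90, the distance between the lowest dexrazoxane and the highest vehicle array. Means were 7.02 ± 0.11 with dexrazoxane and 5.91 ± 0.11 with vehicle (SD, n = 3 each), a difference of 1.10 or 2.15-fold, and the 3 same-numbered pairs differed by 1.15, 0.90 and 1.26. All 3 dexrazoxane arrays were thus high and all 3 vehicle arrays low. The difference was the third largest rise of the 14731 genes tested. With doxycycline the level was 5.46 against 5.14 on its vehicle array, a difference of 0.33 in the same direction. The array medians of this pair were 4.81 and 4.82. Other probe sets of low level also differed here, for example by 0.31 (SERPINE2, 227487_s_at), -0.40 (HPN) and -0.38 (COL1A2). The spread of such probe sets in this pair was not tested. A rise at least as large was found for 170 of the genes tested (1.15%), SERPINI1 included, and this single pair has no error. Falls are not in this count, and COL1A2 at -0.38 was only the 155th lowest gene.

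**Figure D1:**
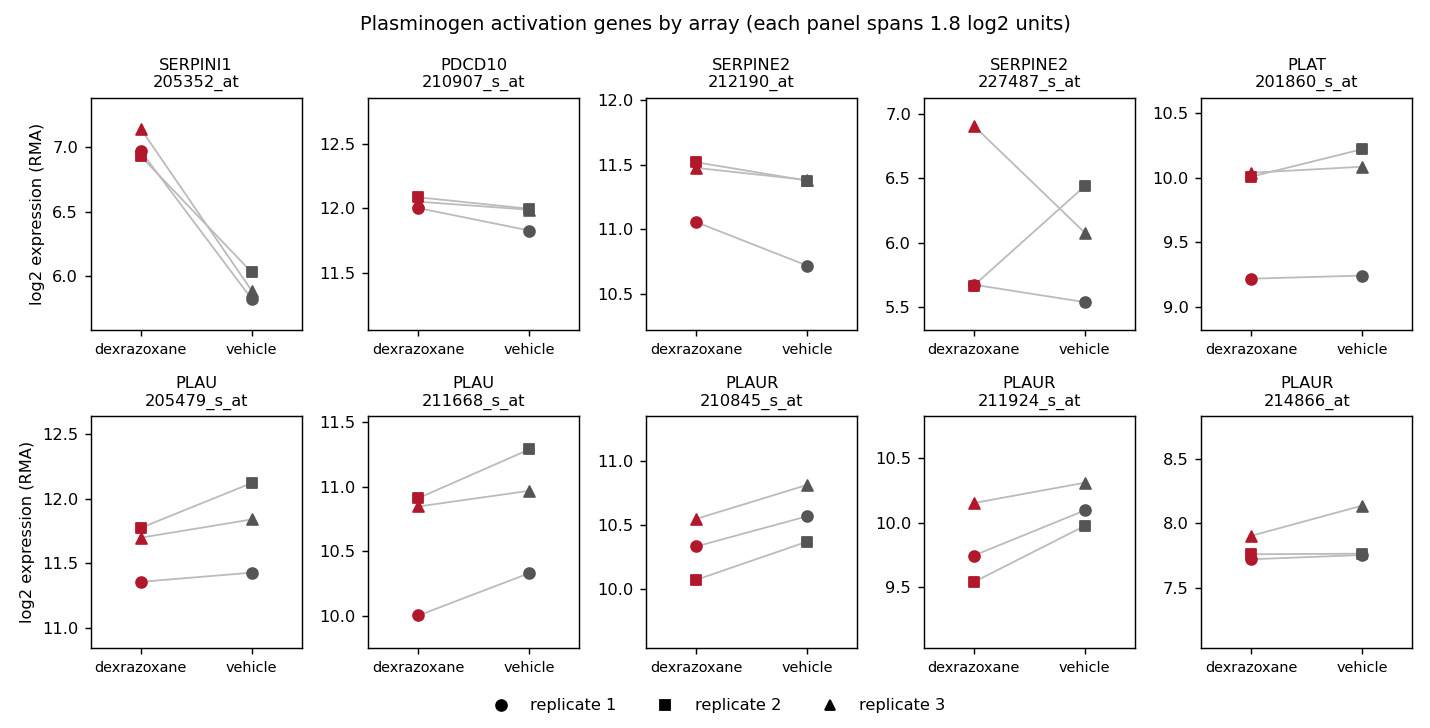
Log2 expression of the 10 probe sets on the 3 dexrazoxane arrays (left, red) and the 3 dexrazoxane vehicle arrays (right, grey), with symbols for the replicate number and lines joining arrays of the same number. SERPINI1 is separated by treatment, while PLAT, PLAU and SERPINE2 (212190_at) differ more between replicate 1 and the other numbers than between treatments.

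SERPINI1 and PDCD10 lie head to head on chromosome 3 (GRCh38.p14). SERPINI1 spans 167735721 to 167825569 on the plus strand and PDCD10 spans 167683298 to 167734892 on the minus strand, so that their annotated starts are 829 bases apart. The RefSeq start windows of both genes (250 bases before the start and 50 after it) are shown because they lie next to these starts. They do not overlap, and the 328 bases between them were not examined, so the windows do not cover the whole stretch between the starts. RefSeq gives PDCD10 a second start, 1234 bases from that of SERPINI1, whose window (chr3:167734438-167734737) is not shown. In the SERPINI1 window, chr3:167735471-167735770 on the plus strand, capitals mark CAGCTG, a palindromic E-box. In the PDCD10 window, chr3:167734843-167735142 read on the minus strand, capitals mark CCAAT or its complement.
SERPINI1: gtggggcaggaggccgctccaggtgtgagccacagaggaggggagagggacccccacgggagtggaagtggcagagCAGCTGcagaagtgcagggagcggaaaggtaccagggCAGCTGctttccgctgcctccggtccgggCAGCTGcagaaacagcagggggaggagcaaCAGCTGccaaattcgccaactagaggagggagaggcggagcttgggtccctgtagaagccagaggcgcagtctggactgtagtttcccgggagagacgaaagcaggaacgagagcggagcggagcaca
PDCD10: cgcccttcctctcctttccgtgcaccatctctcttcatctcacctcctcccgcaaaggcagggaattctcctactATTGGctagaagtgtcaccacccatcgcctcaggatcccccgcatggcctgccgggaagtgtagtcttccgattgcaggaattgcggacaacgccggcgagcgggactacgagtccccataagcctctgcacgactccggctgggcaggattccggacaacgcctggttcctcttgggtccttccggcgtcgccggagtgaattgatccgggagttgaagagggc

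The SERPINI1 window held CAGCTG 4 times, beginning 174, 137, 108 and 78 bases before the start, and the PDCD10 window held it 0 times. Of 34796 different RefSeq windows of this length, 17.9% held it at least once and 11 (0.0316%) held it at least 4 times. The motif was picked after the sequence had been seen, so its rarity is a description. CCAAT, searched on both strands, occurred once in the PDCD10 window and not in that of SERPINI1, and 34.6% of windows held it. Neither of the windows shown held, on either strand, the AP-1 motif TGANTCA (in 7.73% of all windows), the SP1 motif GGGCGG (44.9%), the TATA box as TATAAA (11.6%) or the p53 half-site (6.65%). The second PDCD10 window held the SP1 letters 2 times, 76 and 24 bases before its start, and no CCAAT. GC content was 64.0% and 60.3%, against a median of 58.7% over all windows. A match of letters is not a bound site, and no match says only that these letters are not in this window.

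PDCD10 (210907_s_at) had log2 levels of 12.002, 12.086 and 12.052 with dexrazoxane against 11.828, 11.997 and 11.989 with vehicle. The groups were separated by only 0.0054. The difference was 0.11 ± 0.07 (SE of the paired fit), or 1.08-fold, and it did not pass the test (limma adjusted p = 1.00 without the block and 0.428 with it). By pair PDCD10 differed by 0.17, 0.09 and 0.06, where SERPINI1 differed by 1.15, 0.90 and 1.26. With doxycycline PDCD10 was 11.51 against 11.57. This difference was -0.06. The SD of the doxycycline differences of all genes tested was 0.146, with TOP2A and dim genes included, so it is not matched to the level of PDCD10. Across this head-to-head pair of starts the dexrazoxane differences were thus 2.15-fold for SERPINI1 and 1.08-fold for PDCD10.

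The 3 nearest protein-coding genes on each side of SERPINI1 were then taken from the gene table. On the side of PDCD10 lay WDR49, at -77.8 kb from the SERPINI1 start, and SERPINI2, a serpin gene of the same clade, at -259 kb. Neither passed the filter, and their dexrazoxane differences were 0.02 and -0.07. On the other side lay GOLIM4, a Golgi membrane protein gene at 273 kb (-0.14 ± 0.13, limma adjusted p = 0.596 with the block), MECOM, a zinc finger transcription factor gene (-0.25 ± 0.08, 0.104), and the actin-related gene ACTRT3, which was below the filter (0.21). The 2 tested were not called, and the pairs of SERPINI2, WDR49 and GOLIM4 pointed in both directions. The mean differences of these 5 genes lay between -0.25 and 0.21.

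**Figure D2:**
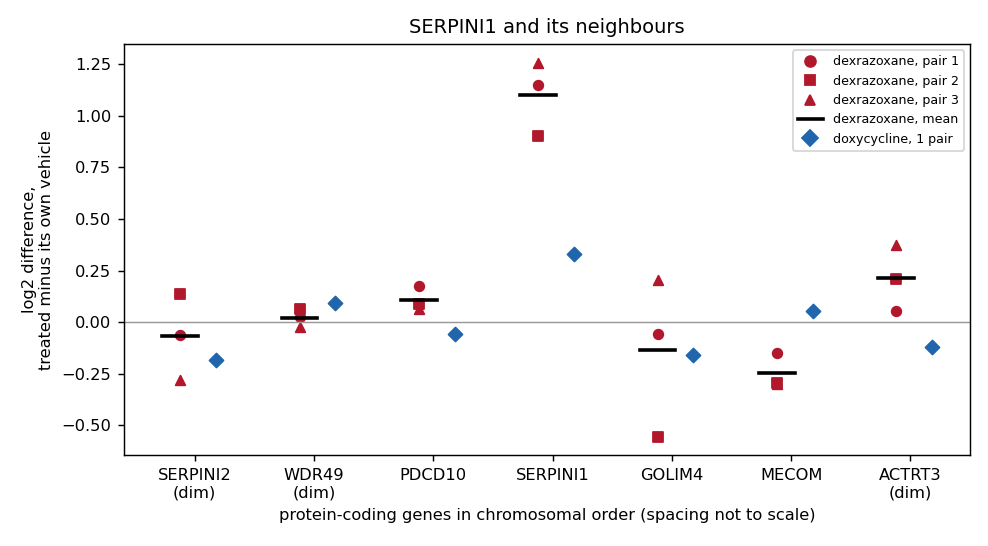
Log2 differences, treated minus its own vehicle, of SERPINI1 and the 3 nearest protein-coding genes on each side, in chromosomal order. Red symbols are the 3 dexrazoxane pairs, black bars their means and blue diamonds the doxycycline pair; genes marked dim were below the filter. SERPINI1 lies at 1.10 with dexrazoxane and the other genes between -0.25 and 0.21.

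SERPINE2, the other secreted inhibitor measured, had 2 probe sets. The brighter (212190_at) had log2 levels of 11.06, 11.52 and 11.48 with dexrazoxane against 10.72, 11.38 and 11.38 with vehicle. The first replicate was low in both groups, and the groups overlapped. Each pair was higher with dexrazoxane, by 0.34, 0.14 and 0.09, a mean difference of 0.19 ± 0.08 (SE, paired; limma adjusted p = 1.00 without the block and 0.209 with it). With the block and trended, robust variance the adjusted p was 0.0394. Without vehicle replicate 1 the difference was -0.03 in the fit without the block. Over the 9 alternatives with the block, which keep pairs whole, it was 0.12 to 0.24. The dimmer probe set (227487_s_at) had 5.67, 5.67 and 6.91 with dexrazoxane against 5.54, 6.44 and 6.08 with vehicle, and its pairs pointed in both directions, at 0.14, -0.77 and 0.83. Its mean difference was 0.06. With doxycycline the brighter probe set was 10.39 against 10.37 and the dimmer 5.56 against 5.25. The 2 probe sets therefore gave doxycycline differences of 0.02 and 0.31.

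PLAT, the tPA gene and the main target of neuroserpin, had 1 probe set (201860_s_at). Its log2 levels were 9.22, 10.01 and 10.04 with dexrazoxane against 9.24, 10.22 and 10.09 with vehicle. Replicate 1 was low in both groups and the treatments overlapped. The mean difference was -0.09 ± 0.08 (SE, paired; limma adjusted p = 1.00 without the block and 0.518 with it). The 3 pairs differed by -0.02, -0.21 and -0.05. In the fit without the block the sign turned when 1 array was left out, to 0.17 without dexrazoxane replicate 1, 0.09 without vehicle replicate 2 and 0.02 without vehicle replicate 3. Leaving out 1 array breaks a pair. Over the 9 alternatives with the block, which keep pairs whole, the difference was -0.13 to -0.04. With doxycycline PLAT was 8.71 against 8.76, a difference of -0.05.

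PLAU, the uPA gene, had 2 probe sets whose values were lower with dexrazoxane in each pair. The brighter, used for the gene (205479_s_at), had log2 levels of 11.36, 11.77 and 11.70 with dexrazoxane against 11.43, 12.12 and 11.84 with vehicle. Its mean difference was -0.19 ± 0.08 (SE, paired), with pairs at -0.07, -0.35 and -0.14. It did not pass the test (limma adjusted p = 1.00 without the block and 0.231 with it), although with the block and trended, robust variance the adjusted p was 0.0353. In the fit without the block the difference was -0.02 without vehicle replicate 2, -0.06 without dexrazoxane replicate 1 and -0.37 without vehicle replicate 1. Over the 9 alternatives with the block, which keep pairs whole, it was -0.245 to -0.106. The second probe set (211668_s_at) had 10.002, 10.912 and 10.847 with dexrazoxane against 10.330, 11.291 and 10.969 with vehicle. In the fit over 28553 probe sets its difference of -0.28 ± 0.08 was not called either (limma adjusted p = 0.143 with the block). With doxycycline the 2 probe sets were 10.961 against 10.935 and 9.985 against 9.999. These differences were 0.03 and -0.01, where the SD of all genes tested, TOP2A and dim genes included, was 0.146. That SD is not matched to the level of PLAU.

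PLAUR, the uPA receptor gene, was lower with dexrazoxane in 3 of 3 pairs on all 3 of its probe sets, without passing the test. These probe sets read the same RNA on the same arrays and are not replicates. How many of all genes had 3 pairs in 1 direction was not counted, for PLAUR as for PLAU. The brightest, used for the gene (210845_s_at), had log2 levels of 10.33, 10.07 and 10.55 with dexrazoxane against 10.57, 10.37 and 10.81 with vehicle. The pairs were close to each other, at -0.23, -0.30 and -0.26, although replicate 2 was low and replicate 3 high in both groups, so that the groups overlapped. The mean difference was -0.27 ± 0.07 (SE, paired; limma adjusted p = 1.00 without the block and 0.0780 with it). It passed with the block in 2 of 9 alternatives, the filter at the 60th percentile (adjusted p = 0.0467) and trended, robust variance (0.0079), and the range over the 9 was 0.0079 to 0.265. The second probe set (211924_s_at) had 9.75, 9.54 and 10.15 with dexrazoxane against 10.10, 9.98 and 10.31 with vehicle, a difference of -0.32 ± 0.08. The third (214866_at) had 7.72, 7.76 and 7.90 against 7.75, 7.76 and 8.14, a difference of -0.09 ± 0.08 that came mostly from pair 3. In the fit over all probe sets the 3 had limma adjusted p-values of 0.120, 0.115 and 0.595 with the block. With doxycycline the 3 differed by -0.01, -0.02 and -0.05, at 10.47 against 10.48, 9.71 against 9.72 and 7.23 against 7.28.

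The RefSeq start window of PLAUR, chr19:43670120-43670419 read on the minus strand, is shown because all 3 PLAUR probe sets had lower values with dexrazoxane in each pair, and because AP-1 is a known regulator of this gene; capitals mark TGANTCA.
PLAUR: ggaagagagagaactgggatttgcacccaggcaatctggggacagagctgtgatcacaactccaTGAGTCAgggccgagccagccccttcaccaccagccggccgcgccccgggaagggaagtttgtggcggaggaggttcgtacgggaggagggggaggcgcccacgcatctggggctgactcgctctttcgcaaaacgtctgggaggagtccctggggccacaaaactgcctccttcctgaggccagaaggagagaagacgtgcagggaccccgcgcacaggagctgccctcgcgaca

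The AP-1 letters occurred once, 186 bases before the start, and 7.73% of windows hold them. The same motif was absent from the SERPINI1 and PDCD10 windows shown above. The E-box, SP1, CCAAT and TATA letters were not found in the PLAUR window. These are descriptions of the sequence and say nothing of what bound there.

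**Figure D3:**
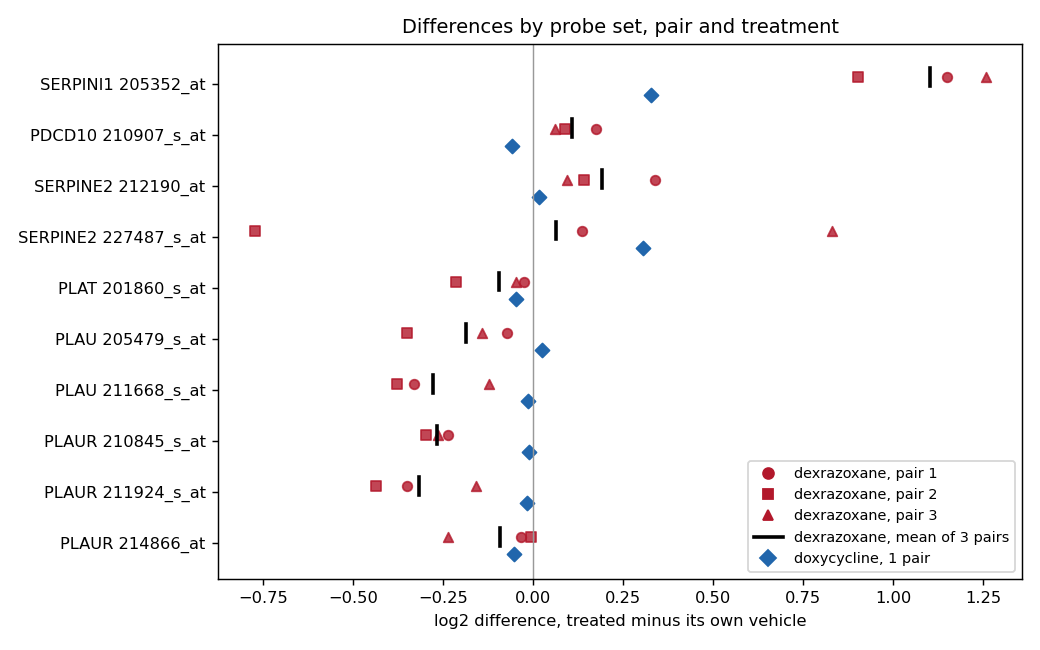
Log2 differences, treated minus its own vehicle, for each probe set. Red symbols are the 3 dexrazoxane pairs, black bars their means and blue diamonds the single doxycycline pair. SERPINI1 is highest under both treatments (1.10 and 0.33), and all PLAT, PLAU and PLAUR means lie below 0 with dexrazoxane, between -0.32 and -0.09.

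Differences between numbered arrays were larger than those between treatments for SERPINE2, PLAT, PLAU and PLAUR. The means of the same-numbered arrays ranged over 0.89 for PLAT, 0.56 for PLAU, 0.56 for SERPINE2 and 0.46 for PLAUR, against treatment differences of -0.09, -0.19, 0.19 and -0.27. PLAT, PLAU and SERPINE2 were lowest on the arrays numbered 1 in both groups, whereas PLAUR was lowest on those numbered 2. SERPINI1 and PDCD10 varied less, over 0.12 and 0.13. For SERPINI1 the treatment difference exceeded that range, and for PDCD10 it was about as large as it (0.11).

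Without the block, 0 of the 6 genes and 0 of all 14731 genes tested (0%) were called at a limma adjusted p under 0.05, with 765 of all genes at an unadjusted p under 0.05. With the block 0 of the other 5 genes were called higher, against 2.42% of all genes, and 0 lower, against 2.44%. In the fit over all probe sets with the block 0 of the other 9 probe sets were called, against 1.37%. Of the other 5 genes only PDCD10 had treatments that did not overlap, with a gap of 0.0054, against 10.1% of all genes. SERPINI1 was selected on this contrast, so its side of the threshold and its separation by treatment are not a test. It is left out of the counts with the block and of groups not overlapping. With doxycycline 0 of the 6 genes differed by at least 1.5-fold, against 0.129% of all genes.

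Other genes of the pathway were taken from lists and read from the same fits, where the median of all genes was 0.02 with dexrazoxane and 0.02 with doxycycline. Without the block 0 genes of any list were called, as over all genes (0%), so every call named here is from the fit with the block, where 2.42% of all genes were higher and 2.44% lower. Of 26 further genes of plasminogen activation and fibrinolysis 14 were tested, and with the block 0 were higher (2.42% over all genes) and 1 lower (2.44%; median -0.01, and 0.04 with doxycycline). The lower one was LRP8, a receptor of the low-density lipoprotein family, with log2 levels of 8.40, 7.92 and 8.23 with dexrazoxane against 8.64, 8.39 and 8.62 with vehicle (-0.37 ± 0.08, limma adjusted p = 0.0401), and it kept its call in 4 of 9 alternatives with the block, losing it for example when any pair was left out (0.0652 to 0.128); without dexrazoxane replicate 2 alone and without the block its difference was -0.24. SERPINB8, an intracellular serpin gene, had a difference of 0.28 ± 0.08 (limma adjusted p = 0.0779), S100A10, which with annexin A2 forms a plasminogen receptor, 0.21, and HPN, the gene of the transmembrane protease hepsin, -0.26, and none of the 3 was called. PLG, the plasminogen gene itself, had 3 probe sets of which 1 passed the filter, at a mean log2 level of 5.70 with dexrazoxane and 5.72 with vehicle.

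Of 14 uPAR partners and integrins, all tested, 0 were higher (2.42% over all genes) and 1 was lower (2.44%; median -0.02). The lower one was FPR1, a formyl peptide receptor gene, at 6.45, 6.65 and 6.58 with dexrazoxane against 6.97, 6.94 and 6.96 with vehicle (-0.39 ± 0.08, limma adjusted p = 0.0339 with the block). Its call was kept in 4 of 9 alternatives with the block and was lost when probe sets were averaged (0.207), with no filter (0.0525), in the test over single probe sets (0.0680) and without pair 1 (0.148) or pair 3 (0.0787). The integrin genes lay between -0.07 (ITGB5) and 0.14 (ITGA5). EGFR, a lateral partner of uPAR, had -0.20 and FPR2 -0.33, neither called. With doxycycline FPR1 differed by 0.07, and the median of the list was 0.01.

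Among 13 genes of proteases and growth factors that plasmin can activate or release, and of receptors linked to them, 10 were tested and 2 rose with the block (2.42% over all genes), with 0 lower (2.44%; median 0.16). MMP3, the stromelysin-1 gene, had 8.28, 9.50 and 9.71 with dexrazoxane against 7.29, 8.86 and 9.09 with vehicle. The groups overlapped because replicate 1 was low in both, and each pair was higher, by 0.98, 0.63 and 0.62 (0.74 ± 0.09, limma adjusted p = 0.0105 with the block). It was called in 9 of 9 alternatives with the block, at 0.62 to 0.81, and in 0 of 13 settings without it. There, leaving out 1 array moved the difference to 0.18 (without vehicle replicate 1), 0.47 (without dexrazoxane replicate 3) or 1.19 (without dexrazoxane replicate 1). TGFB1, the gene of the latent growth factor TGF-beta 1, had pairs at 0.34, 0.70 and 0.55 (0.53 ± 0.09, limma adjusted p = 0.0199 with the block), and was not called when its probe sets were averaged (0.20, adjusted p = 0.135). Without the block its difference was 0.27 without dexrazoxane replicate 1, 0.25 without vehicle replicate 3, 0.80 without dexrazoxane replicate 3 and 0.88 without vehicle replicate 1. Over the 9 alternatives with the block it was 0.20 to 0.63. The genes MMP2, MMP9, MMP14, MMP1, HGF and BDNF were not called, at -0.12 to 0.22.

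Of 19 other serpin genes 10 were tested, and 2 rose (2.42% over all genes) and 0 fell (2.44%) with the block (median 0.06). SERPINB1, an inhibitor of neutrophil proteases, had 8.42, 8.11 and 8.25 with dexrazoxane against 7.81, 7.71 and 7.58 with vehicle (0.56 ± 0.08, limma adjusted p = 0.0148). SERPINB5, which encodes maspin, had 8.834, 8.613 and 8.996 with dexrazoxane against 8.204, 8.187 and 8.442 with vehicle (0.54 ± 0.08, limma adjusted p = 0.0144). Treatments did not overlap for either, as for 10.1% of all genes, and each lost its call with the block when pair 1 was left out (0.0755 and 0.0765). With averaged probe sets the SERPINB5 difference was 0.34. SERPINB7 had a difference of 0.22 and the collagen chaperone gene SERPINH1 -0.15, neither called. With doxycycline SERPINB1, SERPINB5 and SERPINB7 differed by 0.15, 0.13 and 0.02, and the median of the list was 0.09.

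PDCD10 acts with the cavernous malformation proteins and the STRIPAK kinases. Of 22 listed partners 18 were tested, and 0 were called higher (2.42% over all genes) or lower (2.44%) with the block (median -0.04). Differences ran from -0.26 for STK24, a kinase that binds CCM3, to 0.34 for the striatin gene STRN4. The kinase gene STK25 had 0.20, the receptor gene HEG1 -0.15, and ITGB1BP1, which encodes the partner of KRIT1 known as ICAP1, 0.19. With doxycycline the median was 0.0007.

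**Figure D4:**
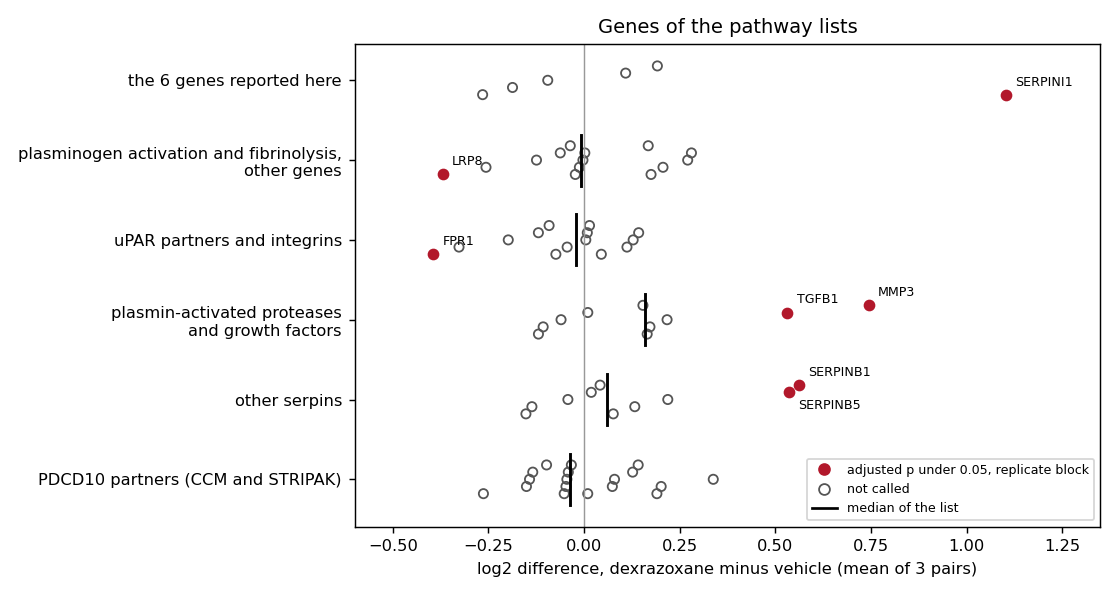
Log2 differences, dexrazoxane minus vehicle, of each tested gene (circles) for the 6 genes and the 5 pathway lists, with list medians as black bars. Filled circles had a limma adjusted p under 0.05 with the replicate block; SERPINI1 was chosen for its value. LRP8 and FPR1 lie at -0.37 and -0.39, and MMP3, TGFB1, SERPINB1 and SERPINB5 between 0.53 and 0.74.

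Genes were ranked by the Pearson correlation of their log2 levels with those of SERPINI1 over the 6 dexrazoxane and vehicle arrays, given with no p. Symbols starting with LOC, LINC, KIAA, FLJ or MGC, antisense symbols and open-reading-frame symbols were passed over. The 6 highest were the tetraspanin gene TSPAN10 (0.990), CFAP36, which encodes a cilia- and flagella-associated protein (0.984), the F-box gene FBXL17 (0.983), the zinc finger gene ZFP82 (0.982), the serpin gene SERPINB7 (0.980) and the co-chaperone gene DNAJB2 (0.978). With each array left out in turn these values ran from 0.969 to 0.999. Their dexrazoxane differences were 0.54, 0.47, 0.28, 0.20, 0.22 and 0.93. A high correlation over 2 groups of 3 arrays mostly marks genes that are higher with dexrazoxane and even within groups. With doxycycline, on arrays that this ranking did not use, they differed by -0.15, -0.06, 0.02, 0.06, 0.02 and -0.05, where SERPINI1 differed by 0.33. PDCD10 correlated with SERPINI1 at 0.716, SERPINE2 at 0.414, PLAT at -0.018, PLAU at -0.267 and PLAUR at -0.545. After the mean of each pair had been removed the values were 0.908, 0.870, -0.660, -0.779 and -0.978. What remains then is the 3 pair differences of each gene, and those of SERPINI1, which was selected on this contrast, are all positive. The values with pair means removed therefore mostly restate the direction of each gene's pairs and are no measure of joint regulation.

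**Figure D5:**
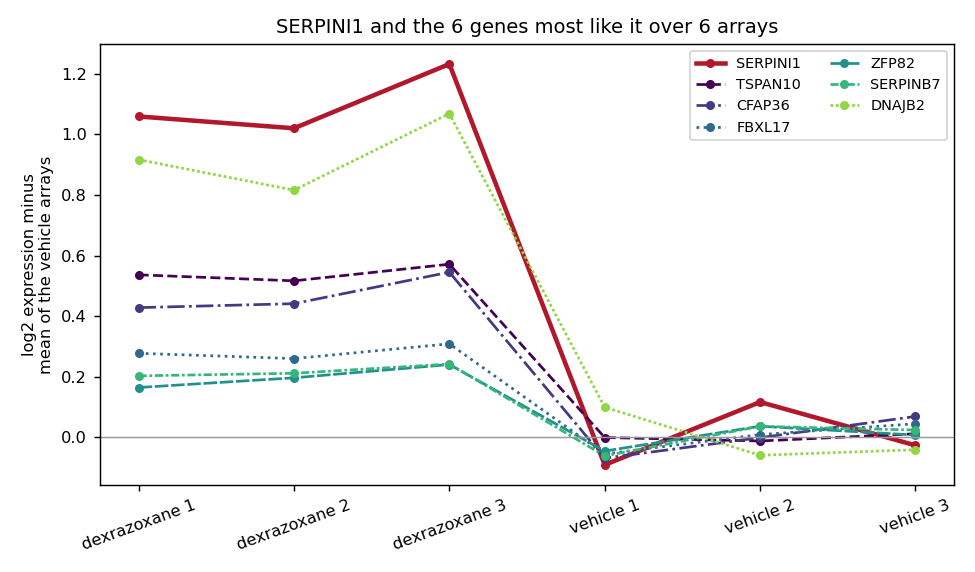
Log2 expression of SERPINI1 (thick red) and the 6 named genes most correlated with it on each dexrazoxane and vehicle array. The mean of the 3 vehicle arrays was subtracted, and lines only join points of a gene. DNAJB2 comes nearest to SERPINI1 in size, with means 0.93 and 1.10 above vehicle.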

How the data were processed

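RNA was measured on Affymetrix arrays. The deposited table holds log2 values per probe set made by the authors with RMA, per the submitters' processing notes. Joint normalization of the 8 arrays is not stated in the sources used here. Of 54675 probe sets, 41097 had 1 gene symbol in the platform annotation and 1801 several; symbols were updated by Entrez identifier through a RefSeq table (GRCh38.p14). For gene-level tests each gene took its brightest probe set (by mean over the 8 arrays), and genes whose mean reached the 40th percentile (a log2 value of 4.83) were tested, 14731 in all; a second fit used 28553 annotated probe sets past the same filter.

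The dexrazoxane contrast was tested two-sided, without a block, by limma's lmFit and eBayes (limma 3.58.1, R 4.3.3), and p-values were adjusted by Benjamini and Hochberg's method over all features, with 0.05 as bound. Deviations from group means correlated at 0.823, 0.574 and 0.716 between arrays sharing a number, so a second fit held the number as a block; this pairing was checked in the same data. Both give the same differences. The single doxycycline pair had no test. The fits were tested on simulated data. The number of arrays limits the precision.

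Members and lists were chosen with earlier results of these data known. Named were all members, TOP2A, PLG and up to 4 tested genes per list with the smallest p without the block. Also given were the 6 genes most correlated with SERPINI1, with the symbols listed above passed over, and the 3 protein-coding genes nearest to it on each side. Other listed genes, COL3A1 and the markers below the filter among them, were named after their values were seen. Alternatives are given in the closing section. Sequences are from RefSeq (GRCh38.p14).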

Additional observations from a re-analysis of the deposited data

How the results depend on the processing

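Without the block, 0 genes were called higher or lower and 0 of the 6 genes reported here; 1 gene was called lower with every probe set on its own, with trended, robust variance and without dexrazoxane replicate 1, and the other alternatives without the block gave 0. With the replicate block the calls were 357 higher and 360 lower, with 1 of the 6 genes past the threshold, SERPINI1, which was selected on this contrast and counts as no test. Combined with the block, no filter gave 195 and 230, the mean of probe sets 348 and 339, every probe set on its own 152 and 238 and median centring 366 and 371, each with 1 of the 6, the 60th percentile filter gave 553 and 512 with 2, and trended, robust variance 992 and 852 with 4. Without replicate 1, 2 or 3 in both groups the paired calls were 42, 416 and 211 higher and 56, 414 and 200 lower. Of the 6 genes SERPINI1 alone passed each time. The number of features alters the adjustment, and for the remaining changes the cause was not tested. Without the block the sign of PLAT turned to 0.17 without dexrazoxane replicate 1, to 0.09 without vehicle replicate 2 and to 0.02 without vehicle replicate 3, while the lowest value for PLAT was -0.40; that of SERPINE2 turned to -0.029 without vehicle replicate 1. Neither was called. The SERPINI1 difference was 1.03 to 1.20 when arrays or pairs were left out, and 1.1 after median centring. The filter, probe set and variance settings cannot change it, since the gene has 1 probe set. SERPINI1 was selected on this contrast, so the range is a description. With doxycycline, the SERPINI1 difference was 0.33 as deposited and 0.34 after median centring or quantile normalization of the pair. Median centring only adds the gap between the 2 array medians, and averaging probe sets cannot change a gene with 1 probe set. These values are therefore no test of this single pair. No detection calls were used here, so low levels carry no statement on presence.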

Other observations

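SERPINE2 has 2 RefSeq start windows. The downstream one, chr2:224031429-224031728 read on the minus strand, is shown because it holds CCAAT or its complement (in capitals) 7 times in what reads as a repeated unit, where 8 of 34796 windows (0.0230%) held it at least 7 times. The other SERPINE2 window, chr2:224038591-224038890, held it 0 times, and CAGCTG 2 times. The motif was one of those searched for all members, and the window was singled out after its count was seen.
SERPINE2: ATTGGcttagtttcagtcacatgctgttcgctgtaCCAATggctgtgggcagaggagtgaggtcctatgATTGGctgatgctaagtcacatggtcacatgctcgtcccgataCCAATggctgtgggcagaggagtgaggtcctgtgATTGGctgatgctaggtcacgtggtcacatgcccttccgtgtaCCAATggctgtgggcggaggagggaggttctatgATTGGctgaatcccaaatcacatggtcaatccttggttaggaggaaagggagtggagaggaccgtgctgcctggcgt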
